A study of Mus musculus with 8 samples.

Results

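The cyclin-dependent kinase (CDK) inhibitor genes of both families were examined in macrophages cultured from mouse bone marrow. The members are the Cip/Kip genes Cdkn1a, Cdkn1b and Cdkn1c and the INK4 genes Cdkn2a, Cdkn2b, Cdkn2c and Cdkn2d, chosen by name. All 7 have a row among the 15853 genes of the authors' comparison, and all 7 have an adjusted p. Knockout macrophages were Mirc11fl/fl Mirc22fl/fl with Lyz2Cre/Cre (4 libraries), and control macrophages were Mirc11fl/fl Mirc22fl/fl with Lyz2+/+ (4 libraries). Mirc11 and Mirc22 are the gene clusters of miR-23, miR-27 and miR-24, and the loxP-flanked alleles were present in both groups. Cre was expressed from Lyz2, a gene of myeloid cells, so Cre and Lyz2 differ between the groups as well. All cells were differentiated over 7 days with L929-conditioned medium and then held for 24 h with 10 nM insulin, 25 mM glucose and 250 uM palmitate. The sources used here give no age for the mice, and the labels do not say whether each library came from its own animal. The p-values therefore measure the spread between these libraries, which may be partly technical.

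CDK inhibitors bind the kinases that drive a cell through its division cycle and hold them inactive. INK4 proteins bind CDK4 and CDK6 and keep D-type cyclins from them, while Cip/Kip proteins bind whole cyclin-CDK complexes, above all those of CDK2. Cultured macrophages of this kind divide in response to the growth factor M-CSF, which raises D-type cyclins, and leave the cycle as inhibitors gain the upper hand. Inhibitor proteins are also controlled by degradation and phosphorylation, which RNA levels do not show.

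The deleted miRNAs are shown first because their seeds (bases 2 to 8, in capitals) set the letters searched for in the inhibitor transcripts. The mature sequences are from RefSeq (GRCm38.p6), all on the plus strand, and miR-24 is encoded by each cluster. miR-23b-3p is named only.
mmu-miR-23a-3p, chr8:84208563-84208583: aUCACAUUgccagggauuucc
mmu-miR-27a-3p, chr8:84208727-84208747: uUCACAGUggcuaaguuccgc
mmu-miR-27b-3p, chr13:63300760-63300780: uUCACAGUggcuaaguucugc
mmu-miR-24-3p, chr8:84208875-84208896 and chr13:63301251-63301272: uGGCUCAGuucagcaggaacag
The copies of miR-27 share a seed, and the seeds of miR-23, miR-27 and miR-24 differ from each other.

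For every gene its longest annotated 3' UTR was read on the transcript strand for AATGTGA or ATGTGAA (miR-23), ACTGTGA or CTGTGAA (miR-27) and CTGAGCC or TGAGCCA (miR-24). Of the 7 inhibitor genes, 4 held a match for at least 1 of the 3 miRNAs, and 53.1% of 13135 tested genes with an annotated 3' UTR did so. Cdkn1b held 3 miR-24 matches, Cdkn2b held 2 miR-27 matches, Cdkn2d held 1 match each of miR-23 and miR-24, and Cdkn1a held 1 miR-27 match. Cdkn1c, Cdkn2a and Cdkn2c held none. A miR-24 match of any kind was present in 26.2% of the tested genes, a miR-27 match in 28.6% and a miR-23 match in 24.5%. For each of the 4 genes 1 match stands in capitals: the only one in Cdkn1a, the longest in Cdkn1b, and in Cdkn2b and Cdkn2d 1 of 2 of equal length. They are shown since these inhibitor transcripts hold a match of the kinds searched. Coding sequence and pairing without such a match were not searched. Direct action on Cdkn1c, Cdkn2a and Cdkn2c was therefore not tested either. Coordinates are mm10 and each sequence is in transcript direction.
Cdkn1a, miR-27, chr17:29099962-29099990, plus strand: attgctcagacCTGTGAAgacaggaatgg
Cdkn1b, miR-24, chr6:134925414-134925443, plus strand: aaggttgcataCTGAGCCAagtataatttt
Cdkn2b, miR-27, chr4:89306467-89306495, minus strand: atttccactaaACTGTGAcccacagttgc
Cdkn2d, miR-23, chr9:21288962-21288990, minus strand: atgatgatcccAATGTGAcccaaggccac
The Cdkn1b sequence holds the only 8-nucleotide match among the inhibitors, a kind that 8.72% of the tested genes hold for miR-24. It lies in exon 2, 3351 nucleotides into a 3' UTR of 3439. An annotated Cdkn1b transcript with a 3' UTR of 1280 nucleotides has 1 match, a miR-24 match of 8 nucleotides. Another, with a 3' UTR of 1087 nucleotides, has no match at all. The Cdkn1a transcripts with 3' UTRs of 308 and 184 nucleotides have none either. A Cdkn2d transcript with a 3' UTR of 563 nucleotides has 1 miR-24 match and none for miR-23. The deposited values are per gene, so which of these ends the cells used was not analysed here. A match is a description of letters and not a shown site of action.

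Which genotype is the numerator is unnamed in the deposited header, and the sign was read from Lyz2, which the Cre insertion interrupts. In the authors' deposited table Lyz2 was at -9.10 (SE 0.42) on the log2 scale, taken as lower in the knockout, and every direction given here rests on that reading. Of 14619 genes with an adjusted p, 23.0% were called at an adjusted p under 0.05, with 11.3% higher and 11.7% lower in the knockout. These were 1651 and 1712 genes, and with fold changes centred on the summed group means they were 2339 and 960. Macrophage identity markers differed widely in abundance. Adgre1, which encodes F4/80, had a mean normalized count of 144462 and Cx3cr1 one of 180 in the authors' deposited table. Of 18 such markers 1, Adgre1, was called higher and 7 lower, with summed derived means of 977569 in knockout cells and 1104425 in control cells. Adgre1 was at 0.25 (SE 0.07) on the log2 scale, and among the 7 were Mpeg1 at -0.44 (SE 0.08) and Cx3cr1 at -1.20 (SE 0.31). Values of single libraries were not used, because the numbering of their columns matches no sample label. Each gene is described by the authors' log2 fold change, knockout over control, with its standard error (SE) and a 95% interval computed from it. Group means were derived from the authors' overall mean and their fold change, taking the groups as equal in size, and carry no error of their own.

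Among the 7 inhibitor genes, 1 was called higher in the knockout and 0 lower by the authors' DESeq2 test, against the 23.0% of tested genes called in either direction. The gene called was Cdkn1c. At an unadjusted p under 0.05 the count was also 1. The median log2 fold change of the 7 was -0.15, against -0.004 for all tested genes, with 3 members above 0 and 4 below.

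**Figure D1:**
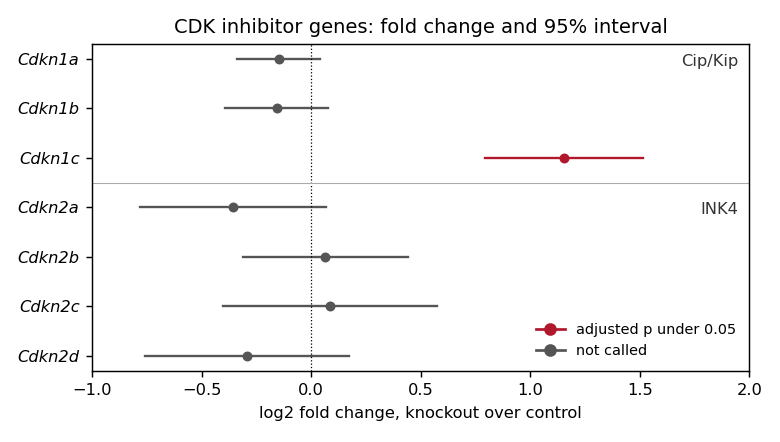
Log2 fold change (x axis, knockout over control) of the 7 CDK inhibitor genes in the authors' deposited table, with points for the estimate and bars for the 95% interval. The interval of Cdkn1c runs from 0.79 to 1.52, and the intervals of the other 6 genes include 0.

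Cdkn1c, which encodes p57Kip2, was the Cip/Kip gene that rose. It had a derived mean normalized count of 256 in knockout cells and 115 in control cells. Its log2 fold change was 1.15 (SE 0.18, DESeq2 adjusted p = 2.44e-08) in the authors' deposited table, a 2.22-fold difference with a 95% interval of 1.73-fold to 2.86-fold. Ranked by p it stood at place 259 of the 14619 tested genes. Of the 1435 other tested genes whose mean lay within 2-fold of that of Cdkn1c, 21.2% were called higher and 5.92% lower, and 92 of those called higher rose by more than Cdkn1c. p57Kip2 is known for arrest of stem and differentiating cells, and its gene is imprinted, with the maternal copy active. The gene lies at chromosome 7, 143458339 to 143461050 on the minus strand (mm10). The annotated antisense gene Gm44732 overlaps it, and no source used here says whether counting used strand, so reads of that pair cannot be told apart.

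Stromal and fibroblast markers rose in the same comparison. Of 19 tested markers 18 were called higher and 0 lower, and their log2 fold changes in the authors' deposited table ran from 1.15 to 2.34 around a median of 1.91. Their summed derived means were 9078 in knockout cells and 2456 in control cells, a ratio of 3.70, and none of the 19 was at 0. The value of Cdkn1c, 1.15, lay at the lower end of that range, beside Pdgfrb at 1.15 (SE 0.39) and below Acta2, smooth muscle actin, at 1.43 (SE 0.18) in the authors' deposited table. Postn at 1.86 (SE 0.22), Fbn1 at 2.03 (SE 0.26) and Col1a2 at 2.18 (SE 0.27) lay higher. What part stromal cells had in the Cdkn1c difference was not tested. In a bulk culture, more cells of a type and more RNA per cell cannot be told apart.

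**Figure D2:**
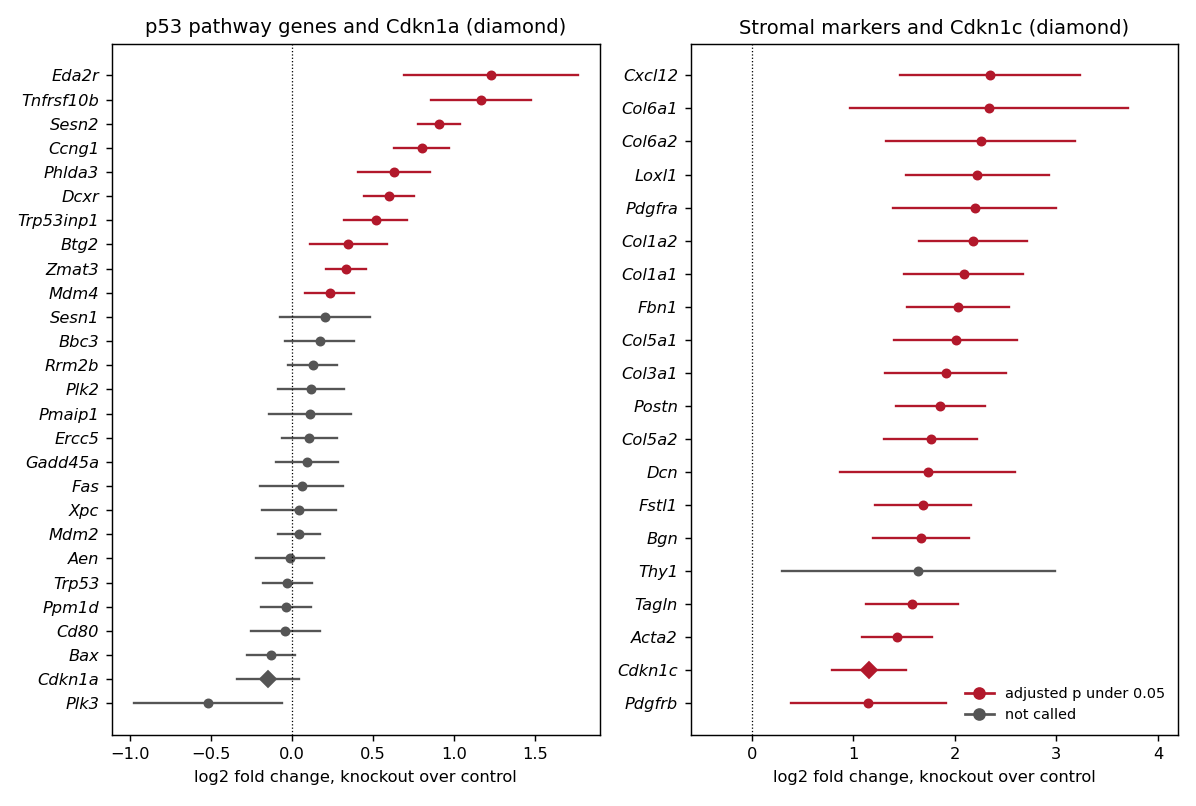
Log2 fold change (x axis, knockout over control) with 95% intervals in the authors' deposited table, on the left for 26 tested p53 pathway genes with Cdkn1a added and on the right for 19 stromal markers with Cdkn1c added. Red marks an adjusted p under 0.05, and the diamonds are the inhibitor genes. Cdkn1a lies at -0.15 below 10 red p53 pathway genes, and the other genes of that list were not called either. Cdkn1c lies at 1.15 near the low end of the stromal markers.

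Several genes beside Cdkn1c belong to the same imprinted cluster. Within 100 kb of Cdkn1c 4 other genes were tested and 1 was called. This was Slc22a18, an imprinted transporter gene 12.7 kb away, which rose, at 0.83 (SE 0.20, DESeq2 adjusted p = 0.000367) in the authors' deposited table. Its derived mean normalized counts were 459 in knockout cells and 258 in control cells. The other 3 were not called: Kcnq1, a potassium channel gene, was at -0.23 (SE 0.47), Nap1l4 at 0.08 (SE 0.06) and Cars, a tRNA synthetase gene, at 0.06 (SE 0.07) in the authors' deposited table. Within 1 Mb, 7 of 20 tested neighbours were called higher and 1 lower, and the median over the 20 was 0.13. Among all tested genes the share with a higher call was 11.3%. Around other members the same window held such a call for 4 of 16 genes (Cdkn1b), 6 of 34 (Cdkn1a) and 5 of 60 (Cdkn2d). It held 2 of 12 for Cdkn2c and 2 of 8 for each of Cdkn2a and Cdkn2b. The medians of these windows lay between -0.04 (Cdkn2d) and 0.15 (Cdkn2a). Whether the Cdkn1c window differs from them was not tested. The largest rise among them with a mean above 50 was that of Osbpl5, a gene for an oxysterol-binding protein 228 kb away, at 1.40 (SE 0.18) in the authors' deposited table. Over a list of 13 tested imprinted genes and neighbours of Cdkn1c, 5 were called higher and 0 lower. That list overlaps the window, with Slc22a18 and Osbpl5 among the shared genes, and also holds Grb10, an imprinted adaptor of insulin receptor signalling on another chromosome, at 1.48 (SE 0.36) in the authors' deposited table. A window of 1 Mb was chosen after seeing the data, and the part of the stromal rise in these calls was not tested.

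**Figure D3:**
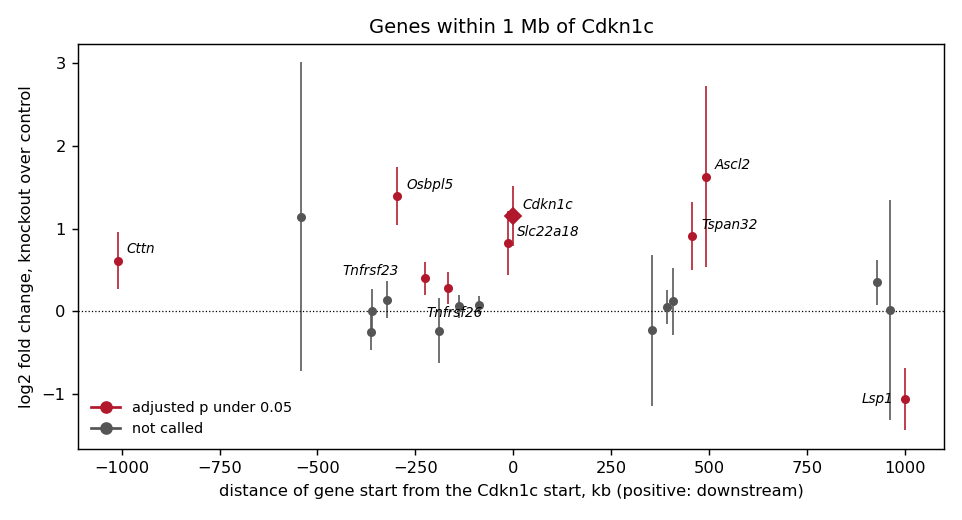
Log2 fold change (y axis, knockout over control) with 95% intervals in the authors' deposited table for the 20 tested genes within 1 Mb of Cdkn1c and for Cdkn1c itself (diamond), against the distance between gene starts in kb (x axis). The 7 neighbours called higher stand on both sides of Cdkn1c and are interspersed with genes that were not called, such as Nap1l4 at 0.08.

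Cdkn1a and Cdkn1b, the other Cip/Kip genes, were not called. Cdkn1a encodes p21Cip1, the inhibitor through which p53 arrests the cycle. It was the most abundant inhibitor, with derived mean normalized counts of 23901 in knockout cells and 26481 in control cells. Its log2 fold change was -0.15 (SE 0.10, DESeq2 adjusted p = 0.274) in the authors' deposited table, a ratio of 0.903 with a 95% interval of 0.791 to 1.03. It lies at chromosome 17, 29090976 to 29100727 on the plus strand (mm10), where AC167363.2 is annotated on the opposite strand across part of the gene.

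Cdkn1b encodes p27Kip1, which accumulates in cells that leave the cycle and is removed by SCF-Skp2 as they enter it. Derived mean normalized counts were 3601 in knockout cells and 4018 in control cells. The log2 fold change was -0.16 (SE 0.12, DESeq2 adjusted p = 0.356) in the authors' deposited table, a ratio of 0.896 with an interval of 0.761 to 1.06. The gene lies at chromosome 6, 134920401 to 134925513 on the plus strand.

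None of the 4 INK4 genes was called in either direction at an adjusted p under 0.05 by DESeq2, and at an unadjusted p under 0.05 the count was also 0. Over all tested genes 23.0% were called, and 5083 of 14619 had an unadjusted p under 0.05, so with 4 genes a count of 0 says little about the family. Cdkn2a is the source of p16Ink4a and, from another promoter and reading frame, of p19Arf, which holds back the p53 inhibitor MDM2. The deposited row is for the gene, so these products could not be told apart. It had derived mean normalized counts of 319 in knockout cells and 409 in control cells and a log2 fold change of -0.36 (SE 0.22, DESeq2 adjusted p = 0.228) in the authors' deposited table. The interval ran from 0.581 to 1.05 as a ratio. Cdkn2b, which encodes p15Ink4b and lies 11.6 kb from Cdkn2a, was at 151 in knockout cells and 145 in control cells. Its log2 fold change was 0.06 (SE 0.19, DESeq2 adjusted p = 0.856) in the authors' deposited table, with an interval of 0.805 to 1.36 as a ratio. The pair occupies chromosome 4, with Cdkn2a at 89274471 to 89294653 and Cdkn2b at 89306299 to 89311039, both on the minus strand. Mtap, an enzyme gene of methionine salvage 93.4 kb from Cdkn2a, was at 0.03 (SE 0.06, DESeq2 adjusted p = 0.787) in the authors' deposited table.

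Cdkn2c encodes p18Ink4c, known for restraint of blood stem and progenitor cells. Its derived mean normalized counts were 1633 in knockout cells and 1540 in control cells. The log2 fold change was 0.09 (SE 0.25, DESeq2 adjusted p = 0.848) in the authors' deposited table; the interval of 0.757 to 1.49 as a ratio leaves room for a fall or a rise. Cdkn2d encodes p19Ink4d, an inhibitor whose RNA is known to vary through the cycle. It was at 528 in knockout cells and 646 in control cells, with a log2 fold change of -0.29 (SE 0.24, DESeq2 adjusted p = 0.397) in the authors' deposited table. Its interval was 0.592 to 1.13 as a ratio. Cdkn2c lies at chromosome 4, 109660876 to 109667189, and Cdkn2d at chromosome 9, 21288410 to 21291407, both on the minus strand. Beside Cdkn2d, Atg4d, an autophagy protease gene 10.6 kb away, fell, at -0.34 (SE 0.10, DESeq2 adjusted p = 0.00635) in the authors' deposited table.

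Levels of different inhibitors were compared as derived mean normalized counts per kb of annotated exon. Cdkn1a stood far above the rest, at 6727 per kb in knockout cells and 7453 per kb in control cells. It made up 75.0% of the summed level of the 7 genes in knockout cells and 75.8% in control cells. Cdkn1b followed at 791 per kb in knockout cells and 883 per kb in control cells. Cdkn2c, Cdkn2d and Cdkn2a came next, between 272 and 608 per kb in knockout cells and between 349 and 573 per kb in control cells. The lowest pair changed places between the genotypes. Cdkn1c was at 125 per kb in knockout cells and 56.4 per kb in control cells, while Cdkn2b was at 109 per kb in knockout cells and 104 per kb in control cells. Cdkn1c made up 1.40% of the summed level in knockout cells and 0.574% in control cells. The sum over the 7 genes was 8968 per kb in knockout cells and 9829 per kb in control cells, a log2 ratio of -0.13. These sums have no error, since the covariance of the genes over libraries is not known here, and which neighbours in the order differ beyond their spread was not tested. With the mean length of coding transcripts in place of all exons, Cdkn1a was at 16554 per kb over all libraries in place of 7090 per kb, and the order over all libraries was the same.

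**Figure D4:**
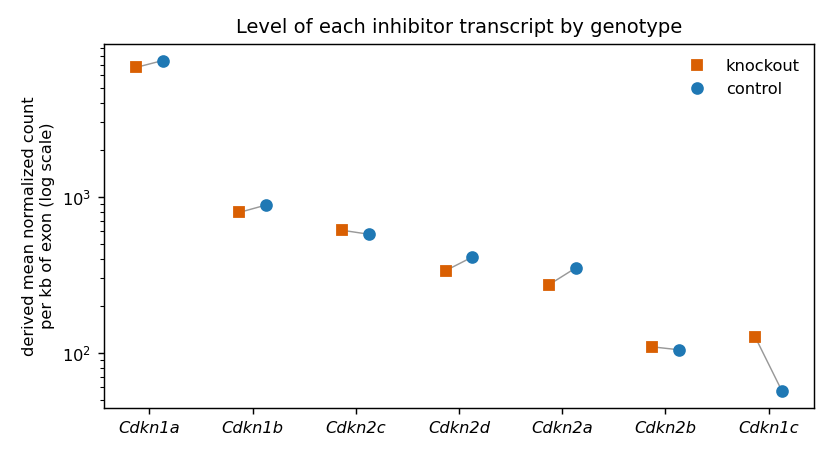
Derived mean normalized count per kb of annotated exon (y axis, log scale) of each CDK inhibitor gene (x axis) in knockout cells (squares) and control cells (circles), without error bars. Cdkn1a is highest at 6727 and 7453 per kb, and only Cdkn1c, at 125 and 56.4 per kb, differs in a pair by over 2-fold.

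The precision of the fold change differed among the members. The smallest Wald statistic of any called gene was 2.53 in size, which sets the change a member needed for a call. Cdkn1a needed a rise of 1.19-fold and Cdkn1b one of 1.23-fold, while Cdkn2a needed 1.46-fold, Cdkn2d 1.52-fold and Cdkn2c 1.55-fold. For Cdkn2c the SE was 2.95 times the median SE of the genes nearest to it in mean, 100 on either side, and 98.5% of those genes had a smaller SE. For Cdkn2d the ratio was 2.05, for Cdkn2a 1.54, for Cdkn1b 1.52 and for Cdkn1a 1.34. Cdkn1c and Cdkn2b, at 0.990 and 0.895, were as precise as genes of like mean. The S and M phase cyclins and kinases had a median ratio of 2.78. Whether Cdkn2c varies with those genes from library to library was not tested.

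**Figure D5:**
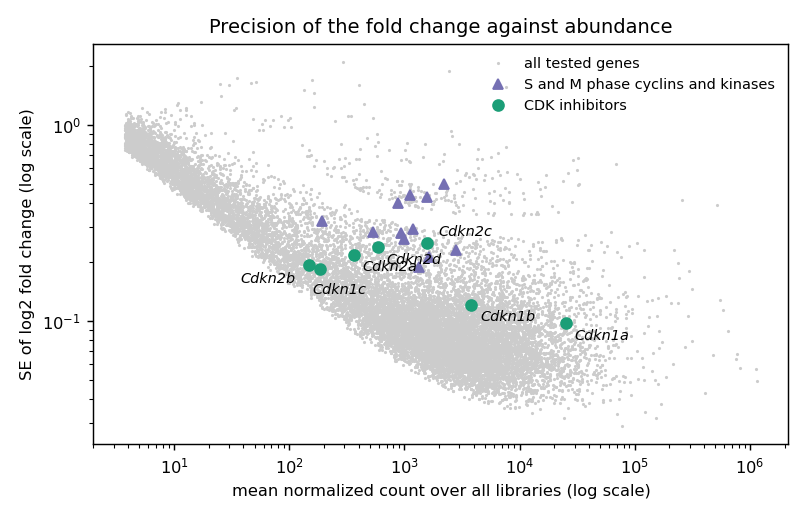
SE of the log2 fold change (y axis, log scale) against mean normalized count over all libraries (x axis, log scale) in the authors' deposited table, for all tested genes (grey), 12 S and M phase cyclins and kinases (triangles) and the 7 CDK inhibitors (circles). Cdkn2c, at an SE of 0.25, lies among the triangles, and Cdkn1c, at 0.18, lies within the grey band.

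The partners of the inhibitors were mostly without a call. Of 13 tested G1 cyclins, CDKs and their activators 0 were called higher and 1 lower, with a median log2 fold change of 0.02. The 1 was Ccnd3, a D-type cyclin and INK4-sensitive partner of CDK4 and CDK6, at -0.52 (SE 0.14, DESeq2 adjusted p = 0.0014) in the authors' deposited table. Ccnd1 was at 0.23 (SE 0.15), Ccnd2 at 0.08 (SE 0.16), Cdk2 at 0.02 (SE 0.15) and Cdk4 at 0.01 (SE 0.12) in the authors' deposited table, none of them called. Cdk6, the other INK4 target kinase, was at -0.39 (SE 0.15, DESeq2 adjusted p = 0.0526) in the authors' deposited table. Over the alternatives its adjusted p lay between 0.0474, with genes under a mean of 50 left out, and 0.118. In the RB and E2F list 0 of 13 were called higher and 1 lower, which was E2f5, a repressor E2F, at -0.50 (SE 0.07), while Rb1 stood at 0.05 (SE 0.11) in the authors' deposited table. Among 12 S and M phase cyclins and kinases 0 were called in either direction by DESeq2, though 11 lay above 0 and the median was 0.55. Of 16 proliferation markers 1 was called higher and 0 lower, with a median of 0.52. That 1 was Cenpa, a centromere histone gene, at 0.78 (SE 0.24, DESeq2 adjusted p = 0.0073) in the authors' deposited table.

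Several genes of the p53 pathway rose, while others, and Cdkn1a, a classic p53 target, were not called. Of 26 tested p53 pathway genes, Cdkn1a not among them, 10 were called higher and 0 lower, with a median log2 fold change of 0.12, against 11.3% of all tested genes called higher. Sesn2, an mTORC1 inhibitor gene, was at 0.90 (SE 0.07, DESeq2 adjusted p = 6.85e-40) and Ccng1, a cyclin G gene, at 0.80 (SE 0.09, DESeq2 adjusted p = 9.80e-18) in the authors' deposited table. Dcxr, a carbonyl reductase gene, was at 0.60 (SE 0.08) and Tnfrsf10b, a death receptor gene, at 1.17 (SE 0.16) in the authors' deposited table. For Cdkn1a the interval ends at 0.04, below those of these 4 genes, which were named for their small p. That gap therefore says nothing about the rest of the list. Mdm2 was at 0.04 (SE 0.07), Bbc3 at 0.17 (SE 0.11) and Bax at -0.13 (SE 0.08) in the authors' deposited table. None of them was called, and their intervals overlap that of Cdkn1a. The differences between Cdkn1a and the listed genes were not tested because the covariance over libraries is unknown. Trp53 lay at -0.03 (SE 0.08, DESeq2 adjusted p = 0.833) in the authors' deposited table, a sign that turned with fold changes centred on the summed group means. Stromal markers had 18 of 19 called higher beside them, and their part in the p53 pathway calls was not tested.

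Regulators that act on the inhibitor genes or proteins gave calls in both directions. Among 32 tested transcription factors 1 was called higher and 6 lower, with a median of -0.14, and with fold changes centred on the summed group means 2 and 3 were. Mxd1, a MYC antagonist, was at -0.43 (SE 0.11) and Klf6, an activator of Cdkn1a, at -0.24 (SE 0.06), while Myc itself was at 0.13 (SE 0.18, not called) in the authors' deposited table. The 1 factor called higher was Rara, at 0.25 (SE 0.08) in the authors' deposited table. Of 24 Polycomb and chromatin regulators, which silence the Cdkn2a and Cdkn2b locus or oppose that silencing, 1 was called higher and 5 lower, with a median of -0.06. Phc2 was at -0.36 (SE 0.06) and Phc1 at -0.40 (SE 0.11), both lower, Rnf2 at 0.23 (SE 0.06), higher, and Bmi1 at -0.14 (SE 0.08), not called, in the authors' deposited table. None of 17 ubiquitin ligase genes was called by DESeq2 in the main comparison, and Skp2, the adaptor that marks p27Kip1 for removal, stood at 0.05 (SE 0.14) in the authors' deposited table. With fold changes centred on the summed group means 5 of the 17 passed as higher. Of 22 kinases and adaptors of inhibitor proteins 2 were called higher and 5 lower, and with that centring 1 of them was called lower. Among those called higher was Src, a kinase that phosphorylates p27Kip1, with 0.58 (SE 0.10) in the authors' deposited table.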

How the data were processed

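Polyadenylated RNA of 8 libraries was sequenced. Salmon, DESeq2, cutadapt and FastQC and the build mm10 are named per the submitters' processing notes, while the sources used here give no versions, settings or design formula. In the deposited comparison stand a signal (the authors' mean normalized count), a log2 fold change with its SE in log2 units, a score (the authors' Wald statistic) and a p-value with its adjusted p-value, per the file headers. The 8 columns of values per library match no sample label and were not used, so depth is unknown and fits per library, likeness of genes over libraries and permutation tests were not run. The authors' calls at an adjusted p under 0.05 are the main result. Genes with a p but no adjusted p had a mean of at most 3.75.

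Positions and 3' UTRs were those of GENCODE M21 on GRCm38 (mm10), where 14049 of 14619 tested genes matched 1 gene by symbol. Python 3.11.15 with pandas 2.3.3 and scipy 1.17.1 was used. Steps were tested on simulated data. The members and gene lists were chosen with earlier results of these data known. Named genes are the members, set partners and regulators, genes within 100 kb of a member and Lyz2. Up to 4 called genes with the smallest adjusted p per list (else the 1 with the smallest p) are named besides. Adgre1, Pdgfrb, Cdkn3, Mdm2, Bbc3, Bax, Ascl2, Gnas, Igf2r, Plagl1 and Lmnb1 fall outside this rule and were chosen after their values were seen. Alternatives were other filters, centrings and thresholds. Protein sequences were not analysed here. Some genes that the rule names are not reported here.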

Additional observations from a re-analysis of the deposited data

How the results depend on the processing

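Cdkn1c stayed called and the other 6 inhibitor genes uncalled, each with its sign, under every filter, centring and threshold tried, with Cdkn1c between 1.15 and 1.22 on the log2 scale. Over all genes the counts moved: at a threshold of 0.01 there were 1047 higher and 1009 lower, against 1651 and 1712. Centred on the ratio of summed group means (log2 -0.06), 2339 were higher and 960 lower. The same with Lyz2 left out, an alternative chosen after seeing the data, gave 2197 and 1046. With both centrings the log2 fold change of Trp53 was 0.034 and 0.023. With 8-nucleotide matches alone, 1 inhibitor gene held a match in place of 4, with 0 for miR-23, 0 for miR-27 and 1 for miR-24; with every annotated 3' UTR the count was 4.

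Of the list counts given, centring on the summed group means changed those of the G1 list (1 higher), the S and M phase list (1 higher), the proliferation markers (3 higher), the transcription factors (2 higher, 3 lower), the Polycomb list (2 higher, 3 lower), the kinases and adaptors (1 lower), the ubiquitin ligases (5 higher), the senescence list (8 higher, 0 lower) and the other genes with a Cdkn or CDK-associated symbol (1 higher, 3 lower). At a threshold of 0.1 the ubiquitin ligases had 3 higher. The p53 pathway had between 8 and 10 higher over all alternatives. No paired analysis was possible because no column per library was tied to a replicate. Refits without single libraries and other pseudocounts were not run for the same reason, so no value here has a check by library.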

Other observations

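A list made by symbol alone, of genes with a Cdkn or CDK-associated symbol outside both inhibitor families, had calls in 1 direction. Of 11 tested genes 0 were called higher and 5 lower, with a median log2 fold change of -0.30. Cables2, a CDK-binding protein gene, was at -0.41 (SE 0.08), Cdk2ap2 at -0.37 (SE 0.10), Cdk2ap1 at -0.30 (SE 0.09) and Cdkn2aip, whose product binds p19Arf, at -0.25 (SE 0.09) in the authors' deposited table. Cdkn3, a phosphatase gene of the mitotic cycle that was chosen after its value was seen, was at 0.93 (SE 0.37, DESeq2 adjusted p = 0.0529) in the authors' deposited table. With fold changes centred on the summed group means 1 of the 11 was called higher and 3 lower, and Cdkn2aip was no longer called (adjusted p = 0.119).

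A list of genes associated with senescence, the lasting arrest in which Cdkn2a and Cdkn1a are known to act, had 5 called higher and 1 lower of 20, with a median of 0.10. Among all tested genes 11.3% were called higher and 11.7% lower. The list was not split by the direction its genes take in senescence, so these counts do not show more or less of it. Hmgb2, a chromatin protein gene that is known to be lost in senescent cells, was at 0.98 (SE 0.18), Igfbp7 at 1.24 (SE 0.31) and Mmp13 at 0.72 (SE 0.16) in the authors' deposited table. Beside them 18 of 19 stromal markers were called higher, and their part was not tested. With fold changes centred on the summed group means the senescence list had 8 called higher and 0 lower.

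Many listed markers of other cells had no row or no adjusted p. Of those listed, 2 of 10 for neutrophils and 2 of 8 for lymphocytes were tested. Over all tested genes 23.0% were called, so counts this small say little about these cells. Of the tested markers, 0 of 2 for neutrophils, 0 of 5 for dendritic cells, 0 of 2 for lymphocytes, 0 of 3 for erythroid cells and megakaryocytes and 0 of 2 for adipocytes were called by DESeq2 in either direction. For mast cells and basophils 1 of 2 was called higher. This was Gata2 at 2.26 (SE 0.62), with a mean normalized count of only 12.4 in the authors' deposited table. For endothelial cells 2 of 4 were higher and 1 lower, with Pecam1 at 0.82 (SE 0.23) and Kdr at -1.30 (SE 0.19) in the authors' deposited table.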
